A study of Homo sapiens with 6 samples.

Results

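The genes described here are the nuclear genes for succinate dehydrogenase (complex II), the cytochrome bc1 complex (complex III), cytochrome c, cytochrome c oxidase (complex IV) and ATP synthase (complex V). They were taken by name: every protein-coding gene of the SDHA to SDHD, UQCR, CYC1, CYCS, COX4I to COX8 and ATP5 families, with pseudogenes left out. This gave 53 of the 58735 genes in the table, of which 4 belong to complex II, 10 to complex III, 1 is cytochrome c, 17 belong to complex IV and 21 to complex V. The naming rule uses no expression value, but the members were chosen with earlier results of these data known.

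The libraries came from HuCCT1 (HUCCT1 in the labels), an established human bile duct cancer cell line. Of the 6 RNA-seq libraries, 3 came from cells in which a small interfering RNA targeted C1QBP (siC1QBP) and 3 from cells given the control siRNA (siNC). The title of the series places C1QBP in a loop with PAICS, FAK and c-Myc in cholangiocarcinoma growth. The labels give no time after transfection, no siRNA sequence and no statement that replicates were separate cultures, so the p-values measure the spread between these libraries, which may be technical.

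Complexes III and IV pass electrons from ubiquinol through cytochrome c to oxygen while they pump protons, and complex V uses the proton gradient to make ATP. Complex II feeds electrons from succinate into the same chain without pumping protons and is also an enzyme of the TCA cycle. All its subunits are nuclear, whereas complexes III, IV and V each join nuclear subunits with a few that are made inside mitochondria from mitochondrial DNA. C1QBP is a protein mainly of the mitochondrial matrix.

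Some subunit mRNAs of complexes III, IV and V were lower in siC1QBP cells. Of 47 members that passed the low-count filter, 20 fell and 0 rose (edgeR adjusted p under 0.05). Among all 15530 tested genes, 7.84% were called lower and 6.47% higher. The 20 were 5 of 10 in complex III, 6 of 13 in complex IV and 9 of 19 in complex V, with 0 of 4 in complex II and 0 of 1 for cytochrome c; the difference between complexes was not tested. The 20 stood at between 56.9% and 86.7% of the siNC mean in CPM (counts scaled to library size). A further 19 members had a lower mean but were not called. No member was higher at an unadjusted p under 0.05 (0 of 47), and DESeq2 called 0 higher and 18 lower. The median log2 fold change was -0.21 over the 47 members and 0.003 over all tested genes. Without siC1QBP replicate 1 it was -0.12, with 22 members lower and 2 higher. Without siNC replicate 2, 13 members were lower.

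Most members are abundant, and abundant genes were called lower more often than the rest. Of the 40 members with a mean of at least 50 CPM, 20 fell, against 16.5% of all 4712 genes at that level. In 26 of the 47 members the 3 siC1QBP libraries all lay below the 3 siNC libraries, against 16.6% of all tested genes.

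**Figure D1:**
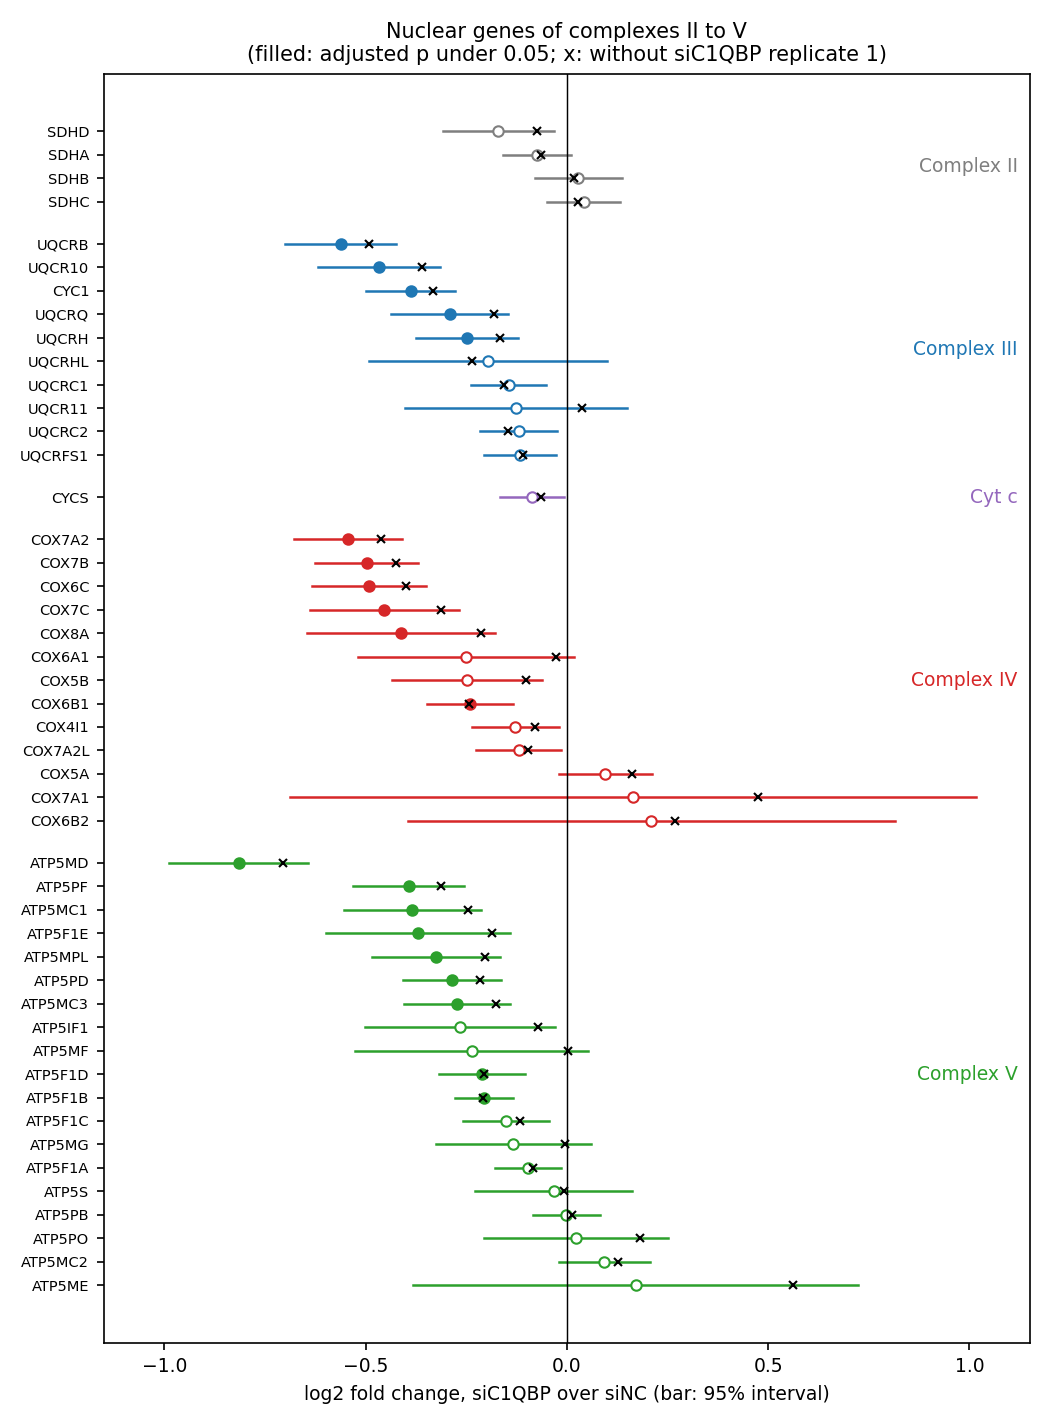
Log2 fold change of each tested member, siC1QBP over siNC, grouped by complex. Points are the estimates from all 6 libraries, bars their 95% intervals, filled points passed an adjusted p of 0.05, and crosses give the estimate without siC1QBP replicate 1. The 20 filled points all lie left of 0, between -0.82 and -0.21, and none is in complex II.

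C1QBP itself (chromosome 17, 5432777 to 5448830, hg38) was at 59.1, 57.6 and 60.0 CPM in siC1QBP libraries and at 175, 181 and 185 CPM in siNC libraries, or 32.7% of the siNC mean (log2 fold change -1.61, SE 0.05; edgeR adjusted p = 1.39e-12). Library totals were 17122252 to 18847340 counts in siC1QBP and 18313264 to 20416243 in siNC. Biliary keratins were abundant (KRT7 3151 CPM in siC1QBP and 3766 in siNC), with KRT7 and KRT19 called lower and MUC1 higher. The 8 biliary genes did not move in a common direction, with 4 negative and 4 positive log2 fold changes (median 0.02). Among the 5 not called, KRT18, SOX9 and CDH1 had positive values and KRT8 and EPCAM negative ones. The hepatocyte genes ALB, APOA1, TTR and APOB and all 5 leukocyte markers had means under 0.4 CPM in both groups, whereas SERPINA1 was at 490 CPM in siC1QBP, against 436 CPM in siNC. COL1A1, on the fibroblast list, was called higher (38.3 CPM in siC1QBP and 28.4 CPM in siNC), and no tested endothelial marker was called. The other fibroblast genes did not follow COL1A1 as a set. LUM (9.73 CPM in siC1QBP and 7.56 CPM in siNC) and PDGFRB (1.07 CPM in siC1QBP and 1.13 CPM in siNC) were not called. COL3A1 (0 CPM in siC1QBP and 0.236 CPM in siNC) and DCN (0.168 CPM in siC1QBP and 0.235 CPM in siNC) were too low to be tested. In these bulk counts, fewer cells of a type and less RNA per cell cannot be told apart. The siC1QBP libraries had a count in 25001 to 25506 genes, against 23395 to 23841 in siNC, and 4.20% to 4.80% of their counts lay in mitochondrially encoded genes, against 3.66% to 3.88% in siNC. The part of these differences in the results below was not tested. Replicate 1 of siC1QBP stood apart from its group, at chi-square values of 6.66 and 6.77 (over its degrees of freedom, across genes) from replicates 2 and 3, which were 2.09 apart. Called fold changes of members that it moved by more than 1.5 times are given without it as well.

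Promoter sequence was read from the RefSeq table (GRCh38.p14) for 39 of 53 members. The others were not searched, whatever their entry there. Among them were UQCRB, CYC1, COX6C, ATP5F1B, ATP5MC3 and ATP5F1D, which were called lower and are missing from the motif counts below. The letters of 3 motifs named for regulators of respiratory genes were searched for on both strands of the 300 bases around each start site: CCGGAAG for the ETS family, which includes GABPA (also called NRF-2), GCGCA and GCGC with any base between them for NRF1, and AAGATGGC for YY1. Of the 39 members, 36 were tested. The ETS letters occurred in 16 of these 36 (44.4%), against 22.2% of the promoters of 10460 tested protein-coding genes. They were in 7 of 14 members called lower and in 9 of 22 tested members that were not called. The NRF1 letters occurred in 10 of the 36 (27.8%, against 13.1% of tested genes), with 2 of the 14 called lower and 8 of the 22 not called. The YY1 letters occurred in 5 of the 36 (13.9%, against 6.33%), 1 of them called lower. Matches may overlap, they are matches of letters only, and binding was not measured.

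The 200 bases upstream of the start are shown for 3 complex V members that fell, with matched letters in capitals. SDHA of complex II, which was not called, is shown in the same way. All 4 hold a match, so they do not stand for the members as a whole. COX7A2, COX7B, COX7C, ATP5MC1 and ATP5F1E fell and held no match in the bases searched. SDHD and SDHB were not called and held an ETS match. ATP5MD (chr10:103396476-103396675, minus strand, RefSeq symbol ATP5MK) holds an ETS match on each strand, and these overlap. ATP5PF (chr21:25735055-25735254, minus strand) holds a YY1 match and then an ETS match near the start site. ATP5PD (chr17:75046970-75047169, minus strand) holds 1 ETS match, and SDHA (chr5:218120-218319, plus strand) holds 4 NRF1 matches and no ETS match in these bases. All 4 sequences run 5′ to 3′ towards the start site.
ATP5MD: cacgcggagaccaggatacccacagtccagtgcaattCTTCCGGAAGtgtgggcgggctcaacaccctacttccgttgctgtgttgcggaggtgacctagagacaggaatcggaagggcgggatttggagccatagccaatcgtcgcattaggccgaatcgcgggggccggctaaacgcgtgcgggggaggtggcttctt
ATP5PF: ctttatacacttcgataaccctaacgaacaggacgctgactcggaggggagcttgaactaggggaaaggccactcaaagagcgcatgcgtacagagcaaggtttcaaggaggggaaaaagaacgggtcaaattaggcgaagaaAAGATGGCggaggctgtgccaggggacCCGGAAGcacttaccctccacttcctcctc
ATP5PD: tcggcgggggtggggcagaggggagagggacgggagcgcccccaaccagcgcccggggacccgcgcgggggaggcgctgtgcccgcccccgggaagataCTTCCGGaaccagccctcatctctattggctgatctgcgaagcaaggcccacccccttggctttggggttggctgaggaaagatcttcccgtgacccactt
SDHA: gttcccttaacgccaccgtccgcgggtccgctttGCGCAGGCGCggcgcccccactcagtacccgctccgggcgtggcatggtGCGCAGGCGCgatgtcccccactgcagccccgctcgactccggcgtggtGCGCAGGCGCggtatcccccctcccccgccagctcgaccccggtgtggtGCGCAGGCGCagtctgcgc

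Complex II did not pass in any of its 4 genes, and 1 had an unadjusted p under 0.05, with 0 called by DESeq2. SDHA, the flavoprotein that oxidises succinate, had 231, 233 and 243 CPM in siC1QBP libraries and 239, 250 and 254 CPM in siNC libraries. The groups overlapped, and the log2 fold change was -0.07 (95% interval -0.16 to 0.01; edgeR adjusted p = 0.283). SDHD, a membrane anchor that helps hold the ubiquinone site, had 84.3, 104 and 107 CPM in siC1QBP libraries and 113, 113 and 106 CPM in siNC libraries. Replicate 1 of siC1QBP was the low one. Its log2 fold change was -0.17 with all libraries (edgeR adjusted p = 0.117) and -0.07 without that replicate, and it was called without siC1QBP replicate 3 (-0.24; edgeR adjusted p = 0.0478). SDHC, the other anchor, was at 115 ± 3.56 CPM in siC1QBP, against 112 ± 1.2 CPM in siNC (SD, n = 3 each), and SDHB, the iron-sulfur subunit, at 85.6 ± 2.33 CPM in siC1QBP, against 83.9 ± 5.06 CPM in siNC. Neither was called. The 4 genes summed to 96.4% of the siNC mean in siC1QBP. SDHA reads could have been shared with its pseudogenes, which held 11.5% of the counts of the gene and its pseudogenes together.

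In complex III, 5 of 10 genes fell, and all 10 had a negative log2 fold change (median -0.22, and -0.17 with 7 called without siC1QBP replicate 1). UQCRB, a small ubiquinone-binding subunit, had 125, 145 and 148 CPM in siC1QBP libraries and 182, 215 and 220 CPM in siNC libraries. Every siC1QBP library lay below every siNC library, a log2 fold change of -0.56 (SE 0.07; edgeR adjusted p = 7.87e-05). CYC1, the cytochrome c1 that hands electrons to cytochrome c, had 151, 167 and 175 CPM in siC1QBP libraries and 200, 222 and 222 CPM in siNC libraries. These groups did not overlap either, with a log2 fold change of -0.39 (SE 0.06; edgeR adjusted p = 3.00e-04). Both genes lie on chromosome 8 and kept their calls in each of the 6 fits that left out 1 library.

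Another 3 small subunits of complex III fell. UQCR10 was at 64.7 ± 8.81 CPM in siC1QBP, against 89.4 ± 4.24 CPM in siNC (log2 fold change -0.47; edgeR adjusted p = 8.15e-04). UQCRQ had a log2 fold change of -0.29 (edgeR adjusted p = 0.0143) and -0.18 without siC1QBP replicate 1. UQCRH, the acidic hinge protein between cytochrome c1 and cytochrome c, had -0.25 (edgeR adjusted p = 0.0168) and -0.17 without that replicate. Leaving out siNC replicate 2 or 3 ended both calls, at an edgeR adjusted p of up to 0.0881 for UQCRQ and 0.0918 for UQCRH. UQCRHL, a near copy of UQCRH that could share its reads, was at 5.54 ± 0.455 CPM in siC1QBP, against 6.36 ± 0.815 CPM in siNC.

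The other members of complex III were not called. UQCRC1, a core subunit outside the electron path, had 221, 222 and 211 CPM in siC1QBP libraries and 228, 241 and 253 CPM in siNC libraries. The groups did not overlap and the log2 fold change was -0.14 (edgeR adjusted p = 0.0501), a value at the threshold that passed under 10 of 21 other settings. UQCRFS1, the Rieske iron-sulfur protein, was at 125 ± 2.75 CPM in siC1QBP, against 136 ± 2.97 CPM in siNC (log2 fold change -0.12; edgeR adjusted p = 0.0997), and was called with the length trend removed (-0.14; edgeR adjusted p = 0.0378). UQCRC2, the other core subunit, also had -0.12 (edgeR adjusted p = 0.116) and was called without siC1QBP replicate 1 (-0.15; edgeR adjusted p = 0.0359). UQCR11, with 15.4 CPM in siC1QBP replicate 1 and 24.9 and 21.2 CPM in the other siC1QBP libraries, overlapped siNC (20 to 26.7 CPM), with log2 fold changes of -0.13 with that replicate and 0.04 without it.

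Cytochrome c, the soluble carrier between complexes III and IV, was not called. CYCS had 372, 390 and 396 CPM in siC1QBP libraries and 416, 407 and 407 CPM in siNC libraries. The groups did not overlap, and the siC1QBP mean was 94.2% of the siNC mean (log2 fold change -0.09, 95% interval -0.17 to -0.01; edgeR adjusted p = 0.174).

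**Figure D2:**
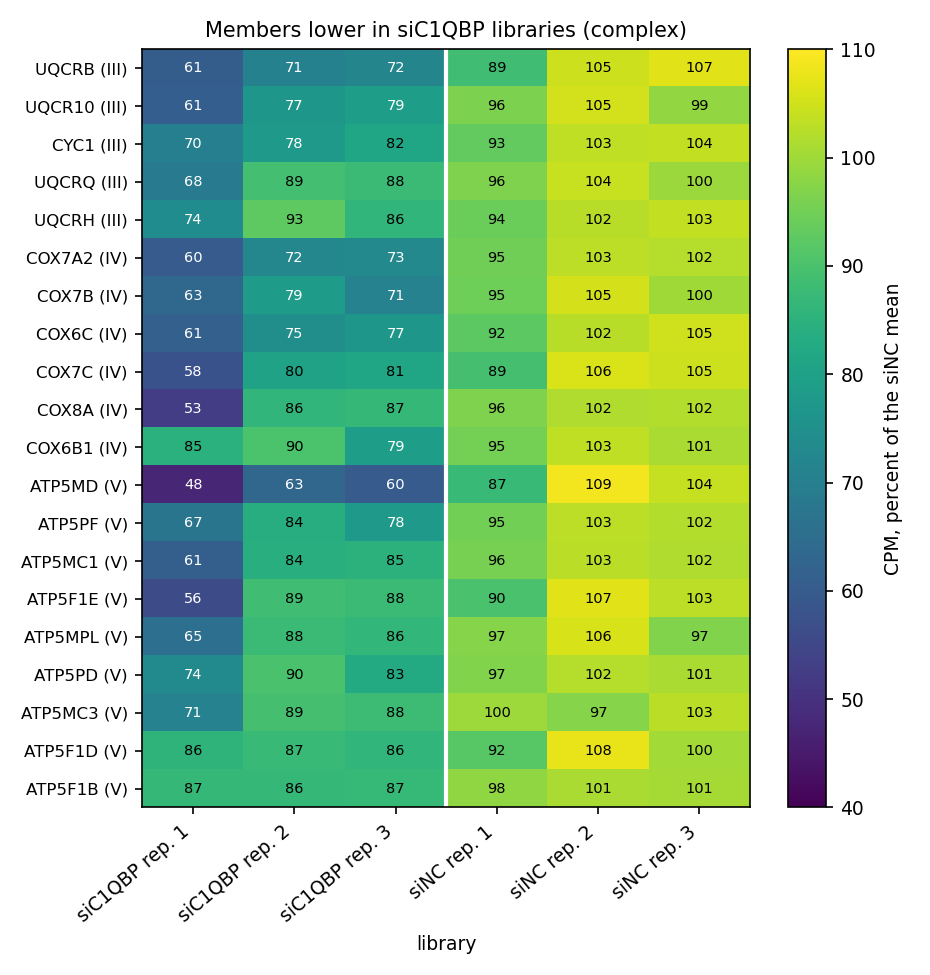
CPM of the 20 members called lower in each library (columns, siC1QBP left of the white line), as a percent of the siNC mean of that gene. ATP5MD had the lowest values in all 3 siC1QBP libraries, and siC1QBP replicate 1 was the lowest library for 18 of the 20 genes, COX6B1 and ATP5F1B being the others.

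In complex IV, 6 of 13 tested genes fell, all of them small nuclear subunits that surround the mitochondrially encoded catalytic core. COX7A2 had 55.2, 66.5 and 67.0 CPM in siC1QBP libraries and 87.0, 94.6 and 93.7 CPM in siNC libraries. COX7B, an X-linked gene, had 95.4, 118 and 107 CPM in siC1QBP libraries and 143, 159 and 151 CPM in siNC libraries. For both, the groups were well apart, with log2 fold changes of -0.54 (SE 0.07; edgeR adjusted p = 8.27e-05) for COX7A2 and -0.50 (SE 0.07; edgeR adjusted p = 1.23e-04) for COX7B. COX6C (-0.49; 85.5 ± 10.1 CPM in siC1QBP and 120 ± 8.0 CPM in siNC) and COX7C (-0.45; 299 ± 54.4 CPM in siC1QBP and 409 ± 38.2 CPM in siNC) fell by similar amounts. COX6B1, a subunit on the intermembrane space side, fell by 0.24 on the log2 scale (edgeR adjusted p = 0.00726), which did not pass once siNC replicate 2 was left out (edgeR adjusted p = 0.0569).

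COX8A had 104, 170 and 172 CPM in siC1QBP libraries and 191, 201 and 202 CPM in siNC libraries. The groups did not overlap, but replicate 1 lay far below the other siC1QBP libraries. Its log2 fold change was -0.41 (edgeR adjusted p = 0.0275) with all libraries and -0.21 (edgeR adjusted p = 7.10e-04) without that replicate. The call was lost without any 1 of the siNC libraries (edgeR adjusted p up to 0.105) and with DESeq2 (adjusted p = 0.192).

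The remaining nuclear subunits of complex IV were not called. COX4I1, the ubiquitous form of the regulatory subunit IV, was at 186 ± 11.4 CPM in siC1QBP, against 203 ± 13.4 CPM in siNC (log2 fold change -0.13; edgeR adjusted p = 0.136), and was called without siNC replicate 1 (-0.19; edgeR adjusted p = 0.0402). COX5B was at 93.3 ± 17.8 CPM in siC1QBP, against 111 ± 6.02 CPM in siNC (-0.25; edgeR adjusted p = 0.0916), and was called without siC1QBP replicate 2 (edgeR adjusted p = 0.0338) or 3 (edgeR adjusted p = 0.0454). Once siC1QBP replicate 1 was left out, COX5B had -0.10 (edgeR adjusted p = 0.191). COX5A, which sits with COX4I1 on the matrix side, had 91.9, 106 and 108 CPM in siC1QBP libraries and 93.1, 96.2 and 96.9 CPM in siNC libraries. Replicates 2 and 3 of siC1QBP were above every siNC library and replicate 1 below them. COX5A had a log2 fold change of 0.10 (edgeR adjusted p = 0.307), and without replicate 1 of siC1QBP it was called higher (0.16; edgeR adjusted p = 0.0195). COX6A1 had 35.0 CPM in that replicate and 61.9 CPM in each of the other siC1QBP libraries, against 61.2 to 65.1 CPM in siNC, with log2 fold changes of -0.25 with it and -0.03 without it. COX7A2L, an assembly factor of respiratory supercomplexes rather than a fixed subunit, was at 63.9 ± 2.52 CPM in siC1QBP, against 69.4 ± 0.305 CPM in siNC (log2 fold change -0.12; edgeR adjusted p = 0.151).

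Forms of complex IV subunits that belong to other tissues were undetected or low in this biliary line. COX4I2 (lung), COX6A2 (heart and skeletal muscle) and COX7B2 (testis) had 0 counts in every library, where 3 counts would be 0.147 to 0.175 CPM. COX8C (testis) had at most 0.0549 CPM in any library. COX7A1 (heart and muscle) was at 0.763 ± 0.414 CPM in siC1QBP, against 0.682 ± 0.151 CPM in siNC, and COX6B2 (testis) at 2.52 ± 1.13 CPM in siC1QBP, against 2.17 ± 0.631 CPM in siNC. Neither was called. Of the muscle markers, CKM, MYH7 and MYH2 had means under 0.04 CPM in both groups. MB was at 9.40 CPM in siC1QBP, against 12.2 CPM in siNC, and TNNT2, at 1.14 CPM in siC1QBP, against 0.424 CPM in siNC, was called higher.

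In complex V, 9 of 19 tested genes fell, in the F1 head, the stalks and the membrane part alike. ATP5MD, also known as DAPIT, a small membrane subunit that links ATP synthase dimers, had the largest fall of all members. It had 68.0, 90.2 and 86.0 CPM in siC1QBP libraries and 125, 156 and 149 CPM in siNC libraries. The highest siC1QBP library was well below the lowest siNC library, at 56.9% of the siNC mean on average (log2 fold change -0.82, 95% interval -0.99 to -0.64; edgeR adjusted p = 2.04e-05), and without siC1QBP replicate 1 the log2 fold change was -0.70. The opposite-strand gene TAF5 overlaps ATP5MD and had 197 to 215 counts in siC1QBP libraries and 177 to 215 counts in siNC libraries.

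Stalk and F1 subunits fell less. ATP5PF, coupling factor 6 of the peripheral stalk, had 50.2, 62.5 and 58.2 CPM in siC1QBP libraries and 71.1, 76.9 and 76.2 CPM in siNC libraries. The groups did not overlap (log2 fold change -0.39, SE 0.07; edgeR adjusted p = 0.00149). ATP5PD, subunit d of the same stalk, was at 92.2 ± 9.16 CPM in siC1QBP, against 112 ± 3.35 CPM in siNC (log2 fold change -0.29; edgeR adjusted p = 0.00528). ATP5F1B, the catalytic beta subunit and the most abundant member by CPM, was at 786 ± 2.27 CPM in siC1QBP, against 907 ± 13.3 CPM in siNC. Its siC1QBP libraries were within a few CPM of each other, replicate 1 included, and its log2 fold change was -0.21 both with that replicate (edgeR adjusted p = 0.00162) and without it. ATP5F1D, the delta subunit of the central stalk, had a log2 fold change of -0.21 too (edgeR adjusted p = 0.0151). It did not pass when siNC replicate 2 (edgeR adjusted p = 0.118) or 3 was left out, or after each library's trend with transcript length was removed (-0.14; edgeR adjusted p = 0.0799). ATP5F1E, the epsilon subunit, had -0.37 (edgeR adjusted p = 0.0418) and -0.19 without siC1QBP replicate 1, and did not pass when siNC replicate 2 (edgeR adjusted p = 0.177) or 3 was left out or with DESeq2 (adjusted p = 0.245).

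The c subunit, whose ring turns as protons pass, is encoded by 3 genes with different import sequences and the same mature protein. ATP5MC1 had 80.7, 111 and 112 CPM in siC1QBP libraries and 126, 136 and 134 CPM in siNC libraries. ATP5MC3 had 139, 175 and 173 CPM in siC1QBP libraries and 196, 191 and 201 CPM in siNC libraries. ATP5MC2 had 81.0, 91.8 and 83.4 CPM in siC1QBP libraries and 82.8, 76.5 and 80.8 CPM in siNC libraries. ATP5MC1 (log2 fold change -0.38; edgeR adjusted p = 0.00709) and ATP5MC3 (-0.27; edgeR adjusted p = 0.0112) fell without overlap, while ATP5MC2 overlapped (0.09; edgeR adjusted p = 0.309). Summed, the 3 genes were at 349 ± 41.8 CPM in siC1QBP, against 408 ± 7.55 CPM in siNC, or 85.5%. ATP5MC2 supplied 26.9%, 24.3% and 22.7% of the sum in siC1QBP libraries and 20.5%, 19.0% and 19.4% in siNC libraries. This share was higher in every siC1QBP library, and the difference between the genes was not tested. Without siC1QBP replicate 1 the log2 fold change was -0.25 for ATP5MC1 and -0.18 for ATP5MC3. ATP5MC3 did not pass once siNC replicate 3 was left out (edgeR adjusted p = 0.0646), nor ATP5MC1 with DESeq2 (adjusted p = 0.0529). ATP5MC2 was called higher once the length trend was removed (0.17; edgeR adjusted p = 0.0400).

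Other members of complex V were mostly not called. ATP5MPL, the small 6.8-kDa proteolipid, fell (log2 fold change -0.32; edgeR adjusted p = 0.0131), and had -0.20 without siC1QBP replicate 1 and no call without siNC replicate 2 (edgeR adjusted p = 0.0893). ATP5F1A, the alpha subunit that alternates with beta in the F1 head, was at 298 ± 5.33 CPM in siC1QBP, against 318 ± 9.89 CPM in siNC (log2 fold change -0.10; edgeR adjusted p = 0.140). ATP5PB, subunit b of the peripheral stalk, had 169, 175 and 174 CPM in siC1QBP libraries and 174, 170 and 175 CPM in siNC libraries. These overlapped throughout, and the 95% interval of the log2 fold change was -0.08 to 0.08. ATP5F1C (gamma), ATP5PO (the oligomycin-sensitivity protein), ATP5MG (subunit g) and ATP5S (coupling factor B, not a structural subunit) had log2 fold changes of -0.15, 0.02, -0.13 and -0.03. Of these, ATP5F1C was called lower without siC1QBP replicate 2 (-0.19; edgeR adjusted p = 0.0447) and ATP5MG without siC1QBP replicate 3 (-0.30; edgeR adjusted p = 0.0193). With siC1QBP replicate 1 left out, ATP5MG had -0.004 (edgeR adjusted p = 0.979) and ATP5PO 0.18 (edgeR adjusted p = 0.156). ATP5MGL, a copy of ATP5MG, and the read-through gene ATP5MF-PTCD1 had too few counts to be tested.

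Replicate 1 of siC1QBP carried much of the distance for some members. It was at or below 80% of the mean of replicates 2 and 3 in 17 of 47 members, and the median over members was 84.7%, against 99.5% over all tested genes. ATP5MF, subunit f, had 49.1, 93.3 and 89.7 CPM in siC1QBP libraries and 85.6, 94.4 and 93.4 CPM in siNC libraries, and its log2 fold change was -0.24 with replicate 1 and 0.00 without it. ATP5IF1, the inhibitor that stops ATP hydrolysis and not a subunit, had 56.7, 88.9 and 94.7 CPM in siC1QBP libraries and 91.3, 95.8 and 102 CPM in siNC libraries. Neither was called with or without replicate 1, and ATP5IF1 (log2 fold change -0.27 with it and -0.07 without it) was called lower without siC1QBP replicate 3 (-0.41; edgeR adjusted p = 0.0300). ATP5ME, subunit e, had 3.39, 11.7 and 12.1 CPM in siC1QBP libraries and 8.95, 7.29 and 7.90 CPM in siNC libraries, so its siC1QBP libraries lay on both sides of siNC. Its log2 fold change was 0.17 (edgeR adjusted p = 0.740), and without replicate 1 it was called higher (0.56; edgeR adjusted p = 0.00421). The 4 genes COX6A1, ATP5MF, ATP5IF1 and ATP5ME are named here because of this gap, seen in their values.

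All 20 falls were still called without siC1QBP replicate 1, and 18 of the 20 were then smaller. By complex, the median log2 fold change without it was -0.17 in III, -0.10 in IV and -0.12 in V, against -0.22, -0.25 and -0.21 with it. It was -0.02 in complex II both ways. Of the 20 calls, 12 held in each of the 6 fits with 1 library left out, 7 were lost without siNC replicate 2 and 6 without siNC replicate 3.

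**Figure D3:**
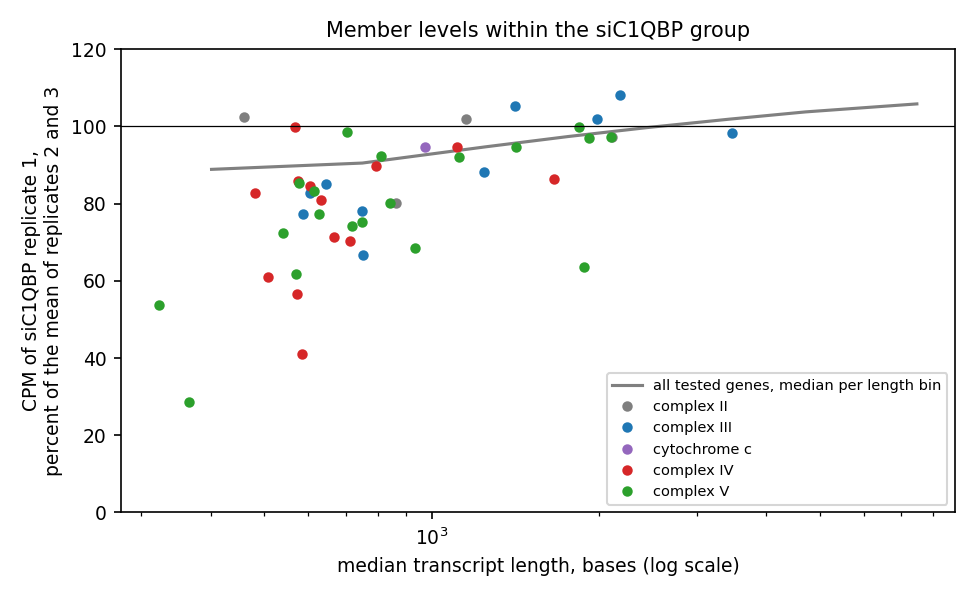
CPM of siC1QBP replicate 1 as a percent of the mean of siC1QBP replicates 2 and 3, for each tested member, against median transcript length in bases (log axis). The grey line is the median of all tested genes in length bins. The lowest points are ATP5ME at 28.6%, COX7A1 (under 1 CPM) at 41.0%, ATP5MF at 53.6% and COX6A1 at 56.5%.

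Members are short genes, and length moved with these values. The median length of the tested members' transcripts was 749 bases, against 2320.5 bases over all tested genes. Across the 47 members, Spearman's rho between transcript length and the ratio of siC1QBP replicate 1 to the other 2 was 0.549, and 0.279 across all 15530 genes. These are descriptions across genes that share libraries. Between length and log2 fold change, rho was 0.326 across members and 0.162 across all genes, and without replicate 1 it was 0.103 and 0.0813. Of 32 members with transcripts under 1000 bases 17 fell (median log2 fold change -0.25), and of 15 longer ones 3 fell (median -0.12), namely CYC1, ATP5F1B and ATP5F1E. Lengths are medians over annotated transcripts, and which of these were present was not measured. ATP5F1E counts as longer by a median of 1878 bases, while its 3 transcripts run from 697 to 3665 bases.

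The members' counts were then set beside those of genes of like level and length. Of 28 members at 50 CPM or more with transcripts under 1000 bases, 17 fell (60.7%), against 43.2% of 431 such genes. Their median log2 fold changes were -0.27 for the members and -0.17 for all such genes. Of 12 longer members at that level, 3 fell (25%), against 13.8% of 4281 genes. Without siC1QBP replicate 1 the shares were 60.7% against 45.0% for short transcripts and 41.7% against 19.6% for longer ones. With the length trend of each library removed, 20 members were lower and 2 higher, COX5A and ATP5MC2, and 19 of the 20 original falls held. That trend was fitted over all tested genes. After its removal, rho between length and log2 fold change was -0.0145 across all tested genes but still 0.3025 across members. The members' relation to length was thus mostly left in place. The part of transcript length in the falls was not tested beyond these values.

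**Figure D4:**
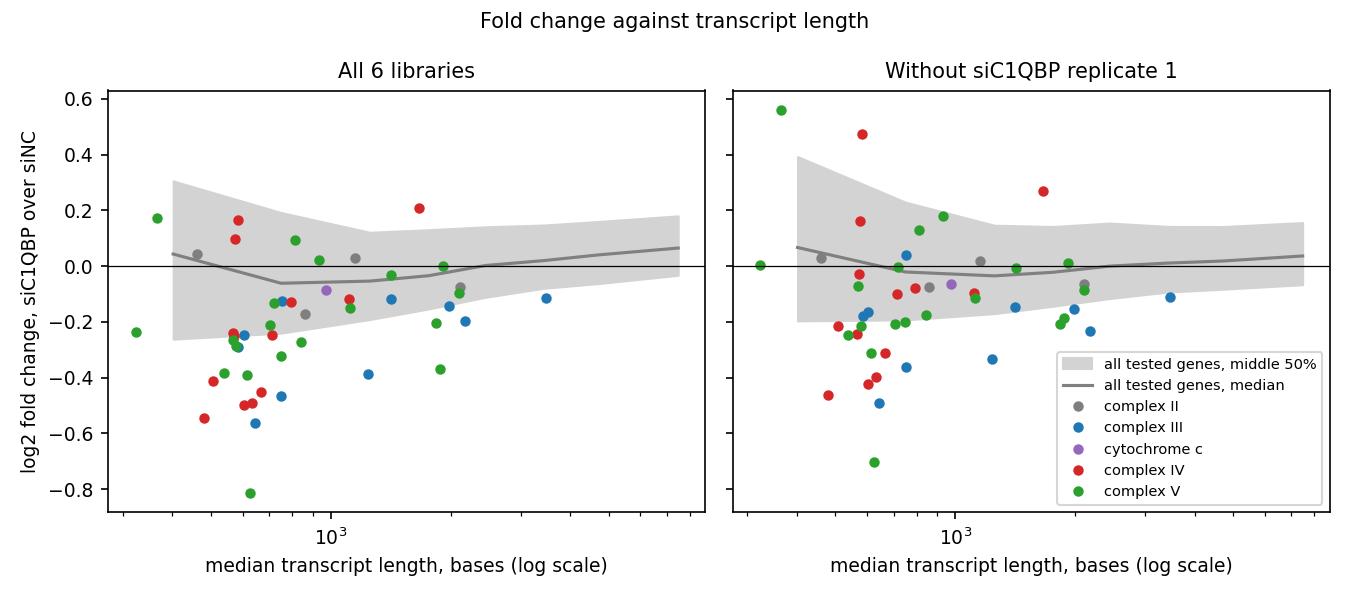
Log2 fold change, siC1QBP over siNC, against median transcript length in bases (log axis) for each tested member, with all 6 libraries (left) and without siC1QBP replicate 1 (right). The grey line and band are the median and middle 50% of all tested genes. Of the 32 members with transcripts under 1000 bases, 17 were called lower in each fit.

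Per length, the levels differed widely within a complex. On the scale of CPM per kilobase of median transcript, COX7C was the highest member at 448 in siC1QBP and 614 in siNC, followed in siNC by ATP5F1B at 428 in siC1QBP and 493 in siNC and by CYCS at 396 in siC1QBP and 421 in siNC. In complex II, SDHC stood at 250 in siC1QBP and 243 in siNC, and SDHB at 74.2 in siC1QBP and 72.7 in siNC. This scale depends on the annotated length used. For SDHC it was a median of 460 bases over 5 transcripts of 369 to 13566 bases, and for SDHB 1153 bases from 1 transcript. In complex III, UQCRH was highest at 297 in siC1QBP and 353 in siNC, while UQCRFS1 was at 36.1 in siC1QBP and 39.1 in siNC. ATP5PO of the peripheral stalk and ATP5ME of the membrane part were at 27.1 and 24.8 in siC1QBP and at 26.7 and 22.0 in siNC. Same-strand exons of other annotated genes overlap 13 members, ATP5PO among them (AP000311.1, 0 counts in every library) and ATP5ME not. On the opposite strand, LINC00649 overlaps ATP5PO and MYL5 overlaps ATP5ME. Whether such overlaps lowered the counts of these 2 members was not tested.

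CPM were also summed over the genes of each complex. All 53 members summed to 5439, 6277 and 6236 CPM in siC1QBP libraries and 6767, 7194 and 7178 CPM in siNC libraries, so that siC1QBP stood at 84.9% of siNC. Complex II stood at 93.7%, 96.5% and 99.2% of its siNC mean in siC1QBP replicates 1, 2 and 3. Complex III stood at 76.5%, 86.2% and 84.1%, complex IV at 67.5%, 86.5% and 85.7%, and complex V at 77.9%, 89.6% and 89.0%. In complexes III, IV and V every siC1QBP library lay below every siNC library. The same held for CYCS and for the sums of the complex I genes and of the assembly factors described below.

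**Figure D5:**
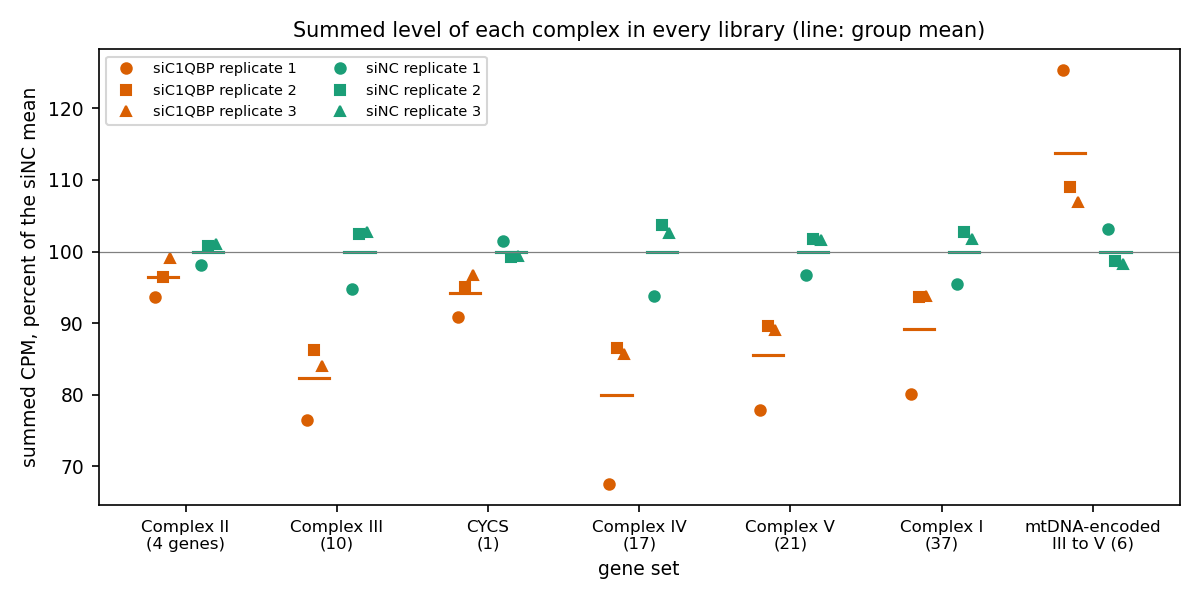
Summed CPM of the genes of each complex in every library, as a percent of the siNC mean, with siC1QBP libraries in orange left of siNC libraries in green. Lines are group means. The siC1QBP means are 96.4% for complex II, 82.3% for III, 79.9% for IV, 85.5% for V, 89.2% for complex I and 114% for the mitochondrially encoded subunits of III to V.

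The partner subunits made from mitochondrial DNA did not fall with the nuclear ones. Of the 6 in complexes III to V, 4 rose and 0 fell, where 6.47% of all tested genes were called higher and 7.84% lower. MT-CYB, the cytochrome b of complex III, had 2535, 2183 and 2100 CPM in siC1QBP libraries and 1818, 1756 and 1721 CPM in siNC libraries. Its groups did not overlap, with a log2 fold change of 0.36 (SE 0.06; edgeR adjusted p = 3.82e-04). MT-CO3 (0.27), MT-CO2 (0.21) and MT-ATP6 (0.19) rose as well, and leaving out siNC replicate 2 or 3 ended the calls of MT-CO2 and MT-ATP6 (edgeR adjusted p for MT-ATP6 0.0580 and 0.0671). The log2 fold changes without siC1QBP replicate 1 were 0.28 for MT-CYB, 0.20 for MT-CO3, 0.13 for MT-CO2 and 0.17 for MT-ATP6, all still called. MT-CO1, the catalytic core of complex IV, had 0.13 (edgeR adjusted p = 0.119) and 0.04 without that replicate (edgeR adjusted p = 0.254). MT-ATP8 had 81.4, 47.3 and 51.9 CPM in siC1QBP libraries and 61.4, 65.7 and 69.1 CPM in siNC libraries. Replicate 1 lay above siNC and the others below, and without that replicate MT-ATP8 was called lower (-0.40; edgeR adjusted p = 1.16e-04). The 6 genes summed to 125%, 109% and 107% of the siNC mean in siC1QBP replicates 1, 2 and 3. These genes are part of the mitochondrial fraction of counts, which was itself larger in siC1QBP libraries.

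Nuclear genes of complex I and of the assembly machinery moved partly in the same way. Of 36 tested complex I subunits, 12 fell and 1 rose (median log2 fold change -0.16), with NDUFB3 at -0.45, NDUFB7 at -0.42 and NDUFA12 at -0.46 among the falls. Without siC1QBP replicate 1, 12 fell and 4 rose, with a median of -0.08. Without siNC replicate 2, 9 fell and 1 rose, and the same without siNC replicate 3. Over all tested genes 7.84% were called lower and 6.47% higher. The tested complex I transcripts had a median of 775.5 bases. Of all genes at 50 CPM or more with transcripts under 1000 bases, 43.2% were called lower. Of 43 tested assembly and expression factors of complexes II to V, 10 fell and 1 rose (median -0.19). SLIRP, which with LRPPRC stabilises mitochondrial mRNAs, had 69.3, 85.8 and 86.3 CPM in siC1QBP libraries and 125, 158 and 147 CPM in siNC libraries, a fall of size near that of ATP5MD (log2 fold change -0.84, SE 0.08; edgeR adjusted p = 8.80e-06). NDUFA4, now placed in complex IV, fell by 0.38 on the log2 scale and TACO1, the translational activator of MT-CO1, by 0.31. COX15, of heme A synthesis, rose (0.26; edgeR adjusted p = 0.0288), but not once siC1QBP replicate 1 (edgeR adjusted p = 0.0603) or 3 or siNC replicate 2 (edgeR adjusted p = 0.156) or 3 was left out, and not with DESeq2. Without siNC replicate 2, 5 of the assembly factors fell. SCO2, also on that list, was left out because its name belongs to 2 gene entries.

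Of 14 transcription factors and coactivators of respiratory genes, 0 were called, with 4 at an unadjusted p under 0.05 and 0 called by DESeq2. GABPA, the ETS protein whose gene overlaps ATP5PF on the opposite strand, had 37, 33.7 and 35.3 CPM in siC1QBP libraries and 38.3, 39.5 and 37.4 CPM in siNC libraries. The groups did not overlap and the log2 fold change was -0.12 (edgeR adjusted p = 0.241). GABPB1, its partner, had -0.22 (edgeR adjusted p = 0.0615). Without siC1QBP replicate 1, 3 factors were called lower: GABPB1 (-0.26; edgeR adjusted p = 0.0407), the mitochondrial transcription factor TFAM (-0.16; edgeR adjusted p = 0.0344) and CREB1 (-0.19; edgeR adjusted p = 0.0335). The coactivator PPRC1 went the other way without overlap, at 64.5 ± 1.93 CPM in siC1QBP, against 58.8 ± 1.54 CPM in siNC (0.14; edgeR adjusted p = 0.111). Of the 14, 11 had a negative log2 fold change and 3 a positive one. With a filter of at least 10 CPM, 0 were called lower and 1 higher. With replicate 1 of both groups left out, 4 were called lower and 1 higher. The factors in these sentences were named after their values were seen.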

How the data were processed

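The 6 libraries, 3 siC1QBP and 3 siNC, were made from total RNA with a strand-marking kit, per the labels' protocols. Gene-level raw counts, in whole numbers and not normalized, were deposited by the authors. The submitters' processing notes name hg38; aligner, counter and strandedness of counting: not given in the sources used here, so reads of overlapping genes may be split. Start and end of 58724 of 58735 genes matched GENCODE 29, which gave transcript lengths (median over protein-coding transcripts). Every row had a gene name.

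Counts were tested with the edgeR 4.0.16 quasi-likelihood test in R 4.3.3 (TMM, filterByExpr, treatment only), with Benjamini-Hochberg adjustment over 15530 genes and a threshold of 0.05. CPM use TMM-scaled library sizes. The SE is the fold change over the root of F, and 95% intervals use the normal approximation. A limit of 3 counts covers counting error only, and library totals of 17122252 to 20416243 set it at 0.147 to 0.175 CPM. For C1QBP a two-sided exact permutation test over CPM was added (p = 0.1, the smallest that 3 against 3 allows). On simulated counts the test recovered 59% of 1.25-fold, 98% of 1.5-fold and 100% of 2-fold changes, with 5.39% of calls false. Changes were planted only in genes of at least 5 CPM, and genes were drawn independently. A deviation of a library shared across genes, such as that of siC1QBP replicate 1, was therefore not simulated. Chi-square comparisons showed no library deposited more than once (2.09 to 6.77 within groups).

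The members and lists were chosen with earlier results of these data known. The naming rule takes all called members, the 2 smallest p and the 2 most abundant uncalled members per complex, and up to 3 called genes with 1 opposite from each list. Of the genes this rule takes, 1 is not reported here. Alternatives were other scalings and filters, DESeq2 1.42.0, limma-voom 3.58.1, each library left out, a replicate block, gene subsets, a stricter threshold and removal of the length trend (lowess, span 0.3). Python 3.11.15, pandas 2.3.3, scipy 1.17.1 and matplotlib 3.10.9 were used.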

Additional observations from a re-analysis of the deposited data

How the results depend on the processing

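The 20 called members kept a negative fold change under every setting tried. Their number was 13 to 24 with 1 library left out (13 without siNC replicate 2 and 24 without siC1QBP replicate 3), 13 at an adjusted p under 0.01, and 18 to 27 under the other settings. The number called higher was 0 to 2 with 1 library left out and 2 with the length trend removed. Over all genes, 2222 calls became 1105 to 2583 with 1 library left out and 1057 at an adjusted p under 0.01. Of the settings added after seeing the data, removing the length trend and leaving out siC1QBP replicate 1 gave 3 higher and 22 lower, and leaving out replicate 1 of both groups gave 3 higher and 25 lower. The third, adding pseudogene counts to their members, gave 20 lower. The cause of these shifts was not tested. The median log2 fold change of all genes was at most 0.052 under any scaling, filter or test, and 0.003 as reported. Deviations of same-numbered libraries correlated at 0.192, 0.109 and 0.0314 over 11089 genes. Those of differently numbered libraries correlated at -0.148 to 0.0880, so the highest value was that of replicate 1 with replicate 1. These values do not decide whether the libraries were paired. The numbers were not taken as pairs because the labels do not say so. With the replicate block 27 members fell, 0 rose and 3092 genes were called. Depth limits the members at or near 0, and 3 libraries a group limit small changes.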
